A study of Drosophila melanogaster with 2 samples.

Results

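Respiratory chain and ATP synthase genes were examined for promoter binding by CG32121 in Drosophila melanogaster. They were taken as the nuclear protein-coding genes of the Ensembl annotation whose symbols start with ND-, COX, UQCR- or ATPsyn, which gave 80 genes of 13945 on 6 chromosome arms. Complex I contributed 40 genes, complex III 9, complex IV 16 and complex V 15. A gene was called bound when its annotation had at least 1 transcription start site no more than 500 bp from a peak summit. The data were ChIP-seq peak lists on the dm6 assembly from whole pupae of 2 days that carried a CG32121-eGFP fusion transgene, with the fusion protein precipitated by an antibody against GFP. The samples formed 1 group of 2 biological replicates, so no condition was compared, and sex was not recorded. Neither an untagged strain nor input chromatin was analysed here, and the lists carry no expression values against which the labelled stage could be checked. In whole pupae, a site occupied strongly in few cells and a site occupied weakly in many cannot be told apart.

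The respiratory chain passes electrons from NADH, through complex I (NADH dehydrogenase), complex III (the cytochrome bc1 complex) and complex IV (cytochrome c oxidase), to oxygen. The protons pumped on the way drive complex V, the ATP synthase. Most subunits are encoded in the nucleus and made in every tissue, and many have a duplicated copy in flies, often marked by an L in the symbol, that is expressed mainly in the testis.

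Promoter summits were found at 11 of the 80 genes. To show where the summits sit and what bases lie under them, the sequences of 6 of these promoters and of 1 unbound testis-type copy are given here in dm6, 5′ to 3′ on the strand of the named gene. In ND-51, ND-MNLL, COX7B and ATPsynCF6 the whole stretch between the start of the opposite neighbour (first base) and that of the named gene (last base) is shown, and in ND-ASHI and ND-24 a window of 201 bases around the summit; in all 6 the capitals mark the 21 bases centred on the summit. For ATPsynCF6L, the testis-type copy of ATPsynCF6, 201 bases around its start are shown and the capital marks the start.
ND-ASHI, chrX:6679273-6679473, minus strand: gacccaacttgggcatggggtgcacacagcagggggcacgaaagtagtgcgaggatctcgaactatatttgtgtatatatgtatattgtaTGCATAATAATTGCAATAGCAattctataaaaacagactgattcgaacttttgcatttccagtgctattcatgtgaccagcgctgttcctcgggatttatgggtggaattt
ND-51, chr2L:6062757-6062989, minus strand: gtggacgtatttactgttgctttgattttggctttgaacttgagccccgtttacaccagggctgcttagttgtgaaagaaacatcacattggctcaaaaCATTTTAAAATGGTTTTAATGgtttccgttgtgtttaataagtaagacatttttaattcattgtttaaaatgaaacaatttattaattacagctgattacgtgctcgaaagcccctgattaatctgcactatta
ND-24, chrX:17632064-17632264, plus strand: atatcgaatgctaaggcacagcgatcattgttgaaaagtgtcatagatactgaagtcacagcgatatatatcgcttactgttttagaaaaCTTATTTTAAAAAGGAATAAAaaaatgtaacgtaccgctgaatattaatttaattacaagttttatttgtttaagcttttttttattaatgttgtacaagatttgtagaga
ND-MNLL, chrX:7893798-7894031, minus strand: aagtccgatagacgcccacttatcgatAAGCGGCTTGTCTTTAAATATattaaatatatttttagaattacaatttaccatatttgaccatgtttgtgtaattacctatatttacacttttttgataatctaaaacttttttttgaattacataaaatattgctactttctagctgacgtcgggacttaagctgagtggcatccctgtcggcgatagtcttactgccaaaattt
COX7B, chr3L:17425217-17425477, plus strand: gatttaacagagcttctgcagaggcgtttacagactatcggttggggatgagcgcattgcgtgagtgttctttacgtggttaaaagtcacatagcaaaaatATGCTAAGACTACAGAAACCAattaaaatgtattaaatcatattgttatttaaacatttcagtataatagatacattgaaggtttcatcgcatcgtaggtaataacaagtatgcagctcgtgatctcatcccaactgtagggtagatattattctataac
ATPsynCF6, chr3R:23356064-23356278, minus strand: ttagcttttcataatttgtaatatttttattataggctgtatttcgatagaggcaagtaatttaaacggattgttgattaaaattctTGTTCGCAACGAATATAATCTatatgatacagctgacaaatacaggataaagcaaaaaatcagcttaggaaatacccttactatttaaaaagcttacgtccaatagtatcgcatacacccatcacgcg
ATPsynCF6L, chr3L:5012083-5012283, minus strand: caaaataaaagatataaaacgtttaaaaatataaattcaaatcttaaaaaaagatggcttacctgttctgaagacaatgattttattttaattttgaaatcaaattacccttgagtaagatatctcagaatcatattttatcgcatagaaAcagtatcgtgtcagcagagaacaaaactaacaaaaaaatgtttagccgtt

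The 11 bound genes made up 13.8% of the respiratory genes, against 21.5% of all protein-coding genes (2993 of 13945) in the conservative list of 7676 peaks. The share of respiratory genes was below the share of all genes in each thresholded list: 7.5% against 13.1% in the list of replicate 1, 15.0% against 20.5% in that of replicate 2, and 16.2% against 23.0% in the other thresholded list of the series. The order was the other way in the ranked list of 91090 peaks, which has no limit on the irreproducible discovery rate (IDR, the rate of calls expected not to repeat between replicates): 78.8% of the respiratory genes had a summit there, against 68.8% of all genes. Respiratory genes were short, with a median length of 1091.5 bp against 2166 bp for all genes. They less often had a single start site (46 of 80, against 10246 of 13945 genes). More often they had 2 (29 of 80, against 2566 of 13945). Among genes with 1 start site, 5 of 46 respiratory genes (10.9%) were bound, against 15.3% of all such genes. With 2 start sites the share was 5 of 29 (17.2%) against 31.4%, and with 3 it was 1 of 5 (20.0%) against 46.6%. No respiratory gene had 4 or more start sites, against 3.16% of all genes.

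**Figure D1:**
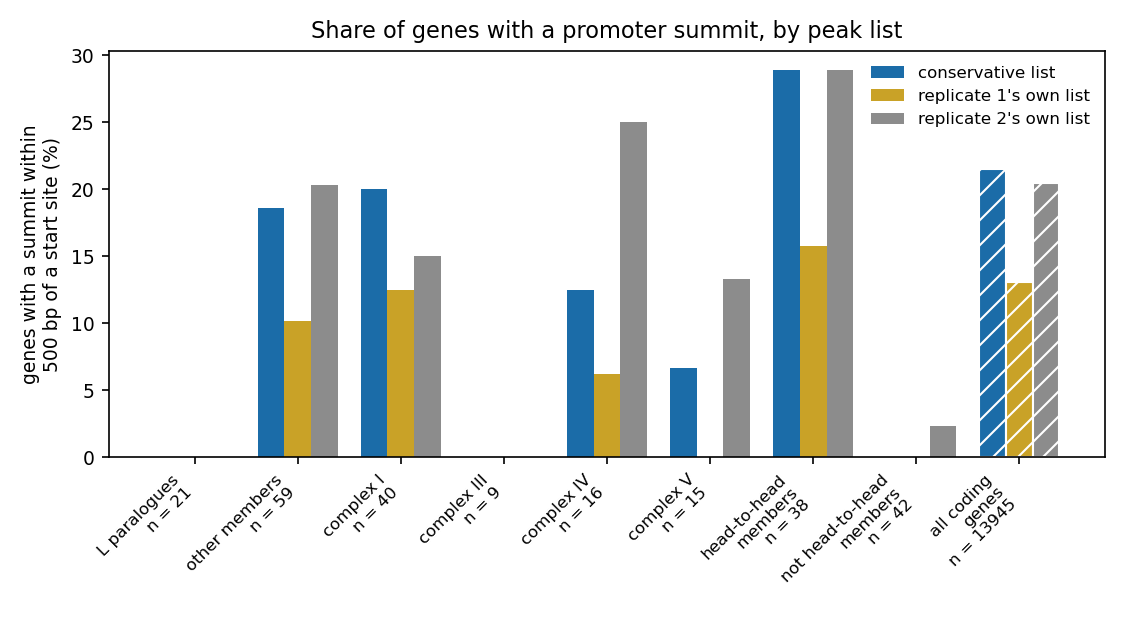
Share of genes with a summit within 500 bp of a start site (vertical axis, percent), in the conservative list and in each replicate's own thresholded list; hatched bars are all coding genes. Bars stand at 0 for the 21 L paralogues in all 3 lists, and at 13.1% to 21.5% for all genes.

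Complex I, which makes up 40 of the 80 genes, held 8 of the 11 bound ones (20.0% of its genes, close to the 21.5% of all coding genes), against 2 of 16 in complex IV (12.5%), 1 of 15 in complex V (6.67%) and 0 of 9 in complex III. Without the testis-type copies, the counts were 8 of 34 in complex I (23.5%), 2 of 8 in complex IV (25.0%), 1 of 11 in complex V (9.09%) and 0 of 6 in complex III, so the share of complex I was then just below that of complex IV. By complex, the replicates differed: complex IV had 1 bound gene in the list of replicate 1 and 4 in that of replicate 2, and complex V had 0 and 2. With so few genes per complex, shares that differ by 1 or 2 genes do not separate the complexes. The bound genes fell on 5 of the 6 arms, with 3 of 12 bound on X and 0 of 2 on chromosome 4. The share of all genes bound on each arm was not computed, so these counts have no background beside them.

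Within complex I, the core subunits, those with a counterpart in the bacterial enzyme, were bound at 3 of 7 genes. The accessory subunits other than testis-type copies were bound at 5 of 27 (18.5%), against 21.5% of all coding genes. This split was added after the data were seen, and 7 genes are too few to set their share against the others. In the list of each replicate alone, the core count was 2. The bound core genes were ND-51 (FBgn0031771), ND-24 (FBgn0030853) and ND-23 (FBgn0017567). ND-51 encodes the flavoprotein that accepts electrons from NADH, and ND-24 its iron-sulphur partner in the same module. The signal at ND-51 was 67.9 in replicate 1 and 126.5 in replicate 2, with 198.9 for the series, a value on a scale set by the authors whose unit is not stated. At ND-24 it was 53.5 and 129.1, with 176.8 for the series, and the summit lay 75 bp downstream of the start. Both peaks were in the list of each replicate and above the median of all conservative peaks (121.5).

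ND-23, an iron-sulphur subunit of the arm that leads electrons to ubiquinone, had the weakest summit of the 11. Its signal was 31.6 in replicate 1 and 49.8 in replicate 2, with 74.2 for the series at rank 6743 of 7676. The summit lay 490 bp downstream of the start, just inside the 500 bp limit, 273 bp from the start of the microRNA gene mir-4911 and 319 bp from that of the noncoding RNA FBtr0309605_df_nrg. It was in neither replicate's thresholded list nor in the other thresholded list of the series.

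The unbound core genes were ND-75, ND-30, ND-49 and ND-20. ND-75, the iron-sulphur subunit that follows ND-51 and ND-24 in the electron path, had its nearest summit 708 bp from a start and so lay just outside the limit. The next genes outside it were ATPsynE (subunit e of the ATP synthase), at 815 bp, and ND-39 (an accessory subunit of complex I), at 912 bp; just inside it lay ND-23 at 490 bp and COX5B at 413 bp. No gene lay between 500 and 708 bp.

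Accessory subunits of complex I carried both the strongest and several weak summits. ND-ASHI, an accessory subunit of the membrane arm, had the strongest peak of all 80 genes: its signal was 387.3 in replicate 2 and 187.8 in replicate 1, 570.7 for the series and an IDR of 1e-05. ND-MWFE, a small membrane-arm subunit, followed with 111.2 and 213.9, and 328.9 for the series. Both stood in the list of each replicate, at ranks 264 and 772.

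The other 3 bound accessory genes lay below the list's median. ND-MNLL had 50.6 in replicate 1 and 62.4 in replicate 2, with 111.8 for the series, and its peak was in the list of replicate 1 only. The nearest start of CG45089, on the same strand, lies 196 bp from the summit, as does that of ND-MNLL, so 1 peak counts for both genes. ND-42 had 35.1 and 62.8, with 108.0 for the series, and ND-SGDH 30.3 and 70.7, with 107.1 for the series. The ND-SGDH peak was in the list of replicate 2 only. ND-42 also had a promoter summit in that list only, but the strongest there had a signal of 69.9, unlike the matched summit (62.8).

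Complex IV was represented by COX7B and COX5B, nuclear subunits around the mitochondrially encoded catalytic core. COX7B had 48.9 in replicate 1 and 62.4 in replicate 2, with 103.7 for the series, and its peak was in the list of replicate 1 only. COX5B, whose mammalian counterpart binds zinc, had 25.9 and 57.4, with 85.4 for the series, and its peak was in the list of replicate 2 only. Among the 15 complex V genes chosen by symbol, the bound one was ATPsynCF6, coupling factor 6 in the stalk of the ATP synthase, with 38.5 and 69.2, 100.6 for the series and a peak in the list of replicate 2 only. The catalytic subunit gene ATPsynbeta was not bound, and its nearest summit was 4208 bp away.

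**Figure D2:**
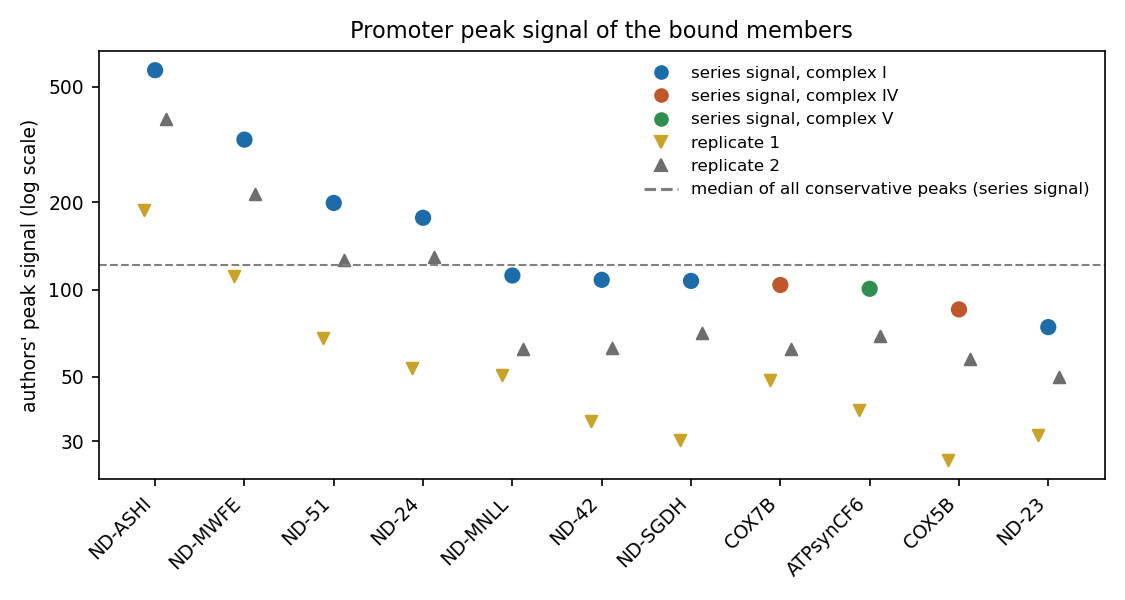
Peak signal as deposited by the authors (vertical axis, log scale) at the 11 bound genes, for the series (circles) and in each replicate (triangles). ND-ASHI, ND-MWFE, ND-51 and ND-24 lie above the dashed median of the conservative list (121.5), and replicate 2 lies above replicate 1 at every gene.

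Signal was higher in replicate 2 than in replicate 1 at all 11 genes, with a median ratio of 1.86, against 1.72 over 7322 peaks of the conservative list matched in both replicates. The median series signal of the 11 genes was 108.0, against 138.2 at the promoters of all bound genes, and 7 of the 11 lay below the median of the list. Both replicate lists held a promoter summit at 4 genes (ND-ASHI, ND-MWFE, ND-51 and ND-24). That of replicate 1 alone did at 2 genes, that of replicate 2 alone at 4, and neither at 1. The replicate lists held 4471 and 7044 peaks for replicates 1 and 2.

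Every bound gene was arranged head-to-head with another protein-coding gene, that is, the neighbour started within 500 bp upstream on the opposite strand. This arrangement was looked at after the bound genes were known. It was found at 38 of the 80 respiratory genes (47.5%), against 27.4% of all coding genes and 43.6% of all bound coding genes. Of the 38, 11 were bound (28.9%), against 34.2% of all head-to-head genes. Of the other 42, 0 were bound, against 16.7% of all genes without such a neighbour. Of these, COX7C had a promoter summit in the list of replicate 2 and in the other thresholded list of the series, and ND-75 came in when the limit was 1000 bp.

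At 7 of the 11 genes the summit lay between the paired starts, which were 214 to 284 bp apart. The exceptions were ND-24, whose start lies 42 bp from that of corolla, ND-23 and COX5B, whose summits lay inside the gene, and ND-ASHI. The pair of starts that made ND-ASHI head-to-head with Fum1 lay 164 bp apart and did not enclose the summit, which lay between another pair of starts of these genes, 522 bp apart. It was 255 bp from the nearest start of ND-ASHI and 267 bp from that of Fum1, which encodes fumarase of the citrate cycle. The ND-42 summit was 123 bp from its own start and 106 bp from that of Cchl, which encodes the lyase that attaches haem to cytochrome c. The ATPsynCF6 summit was 117 bp from its start and 97 bp from that of Sec13, a coat protein of secretory vesicles.

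The remaining neighbours had other roles. The COX7B summit was 149 bp from its start and 111 bp from that of Sec3, a subunit of the exocyst. The ND-MNLL summit was 196 bp from its own start and 37 bp from that of p115, a Golgi tethering factor, and the ND-MWFE summit 201 bp from its own start and 20 bp from that of TppII, a peptidase. The ND-SGDH summit was 78 bp from its own start. The ND-24 summit was nearer to its own start (75 bp) than to that of corolla (117 bp), a protein of the synaptonemal complex. ND-51 shared its summit, 123 bp away, with CG13994, 109 bp away. Counting all gene types, 10 of the 11 summits lay within 500 bp of the start of another gene, and at 7 that start was the nearer one, so a summit cannot be assigned to the respiratory gene alone.

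**Figure D3:**
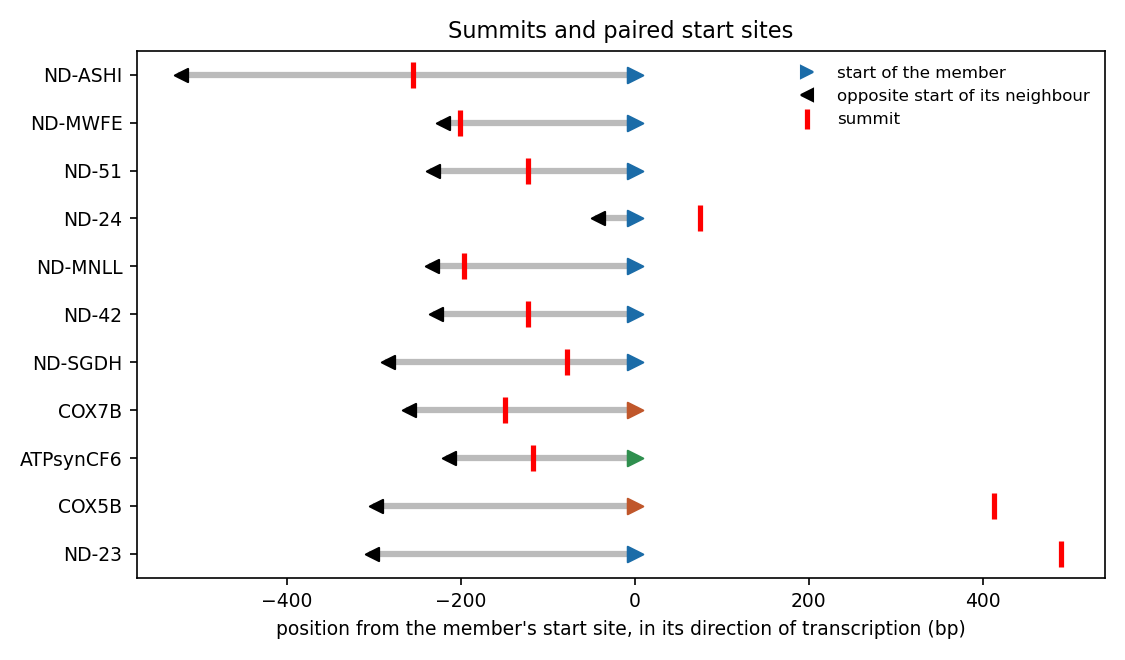
Position of the summit (red bar) relative to the start of the respiratory gene (coloured arrow at 0) and that of its opposite neighbour (black arrow), in bp along the respiratory gene's direction of transcription, ordered by signal. The arrows mark the start nearest the summit and the next opposite start upstream. At 7 genes the bar lies between arrows 214 to 284 bp apart, at ND-ASHI between arrows 522 bp apart, and at ND-24, COX5B and ND-23 it lies downstream.

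None of the 21 L paralogues was bound, in the conservative list, in the other thresholded list or in that of either replicate. Of the 59 other respiratory genes, 11 were bound (18.6%), against 21.5% of all coding genes. The L paralogues were 6 genes of complex I, 3 of complex III, 8 of complex IV and 4 of complex V. In the ranked list without an IDR limit, 10 of the 21 (47.6%) had a summit within 500 bp. The share was 89.8% for the others (53 of 59) and 68.8% for all coding genes. The strongest such summit at each of the 10 had a signal between 2.4 and 37.9, with a median of 24.4 and no IDR below 0.301. The median at the 42 other unbound genes with such a summit was 41.8.

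The L paralogues also differed from the rest in features that go with fewer summits over all genes. Of the 21, 19 had a single start site. Of the 27 other respiratory genes with a single start, 5 were bound (18.5%), against 15.3% of all coding genes with 1. Head-to-head starts were found at 14.3% of the L paralogues, against 59.3% of the others. Among genes with such starts, 0 of 3 L paralogues and 11 of 35 others (31.4%) were bound, against 34.2% of all coding genes. Among those without, 0 of the other 24 were bound, against 16.7% of all coding genes. How far these features account for the difference was not tested.

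Set against their own somatic counterparts, the L paralogues had 0 bound of 21 and the 18 counterparts 6 bound (33.3%). Of the counterparts, 15 are among the 80 genes and 3 (levy, cype and sun) carry other names. Of all coding genes, 21.5% were bound. The share was 15.3% among genes with a single start site and 31.4% among those with 2. Most counterparts had 2 start sites and most L paralogues a single one, so the shares are not on equal terms. The L paralogue was farther from a summit in 14 of 21 pairs and nearer in 7. Median distances were 7914 bp for the L paralogues and 4194 bp for the counterparts. Each distance was taken from whichever start site lay nearest a summit, and ND-51, levy and COX7A each enter the 21 pairs more than once. How far the number of start sites accounts for these differences was not tested. ATPsynCF6L lay 116301 bp from its nearest summit, against 117 bp for ATPsynCF6. ND-24L lay 54394 bp away, against 75 bp for ND-24. ND-51 has a pair of L paralogues, ND-51L1 at 15973 bp and ND-51L2 at 7151 bp, against 123 bp for ND-51 itself.

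In complex IV, COX5BL lay 1218 bp from the summit that counts for COX5B (413 bp). COX6AL and COX6AL2 lay 11963 and 18977 bp away, against 141 bp for levy, the somatic subunit, whose signal was 226.2. COX6CL lay 18821 bp away, against 398 bp for cype, with a signal of 105.0. The pairs with an unbound counterpart were mixed: COX4L (231710 bp against 17226 bp for COX4) and COX7CL (2361 bp against 1979 bp for COX7C) were farther, while COX7AL (6365 bp) and COX7AL2 (3382 bp) were nearer than COX7A (6650 bp).

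The other pairs had no bound member. ND-20L (3731 bp against 76802 bp for ND-20), ND-49L (28836 bp against 69095 bp for ND-49), UQCR-11L (5904 bp against 2241820 bp for UQCR-11), ATPsynGL (1966 bp against 8585 bp for ATPsynG) and ATPsynepsilonL (3844 bp against 4943 bp for sun) were nearer than their counterparts. ND-B14.5AL (111022 bp against 3507 bp for ND-B14.5A), UQCR-14L (14468 bp against 6744 bp for UQCR-14), UQCR-6.4L (4824 bp against 4180 bp for UQCR-6.4) and ATPsynbetaL (7914 bp against 4208 bp for ATPsynbeta) were farther.

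**Figure D4:**
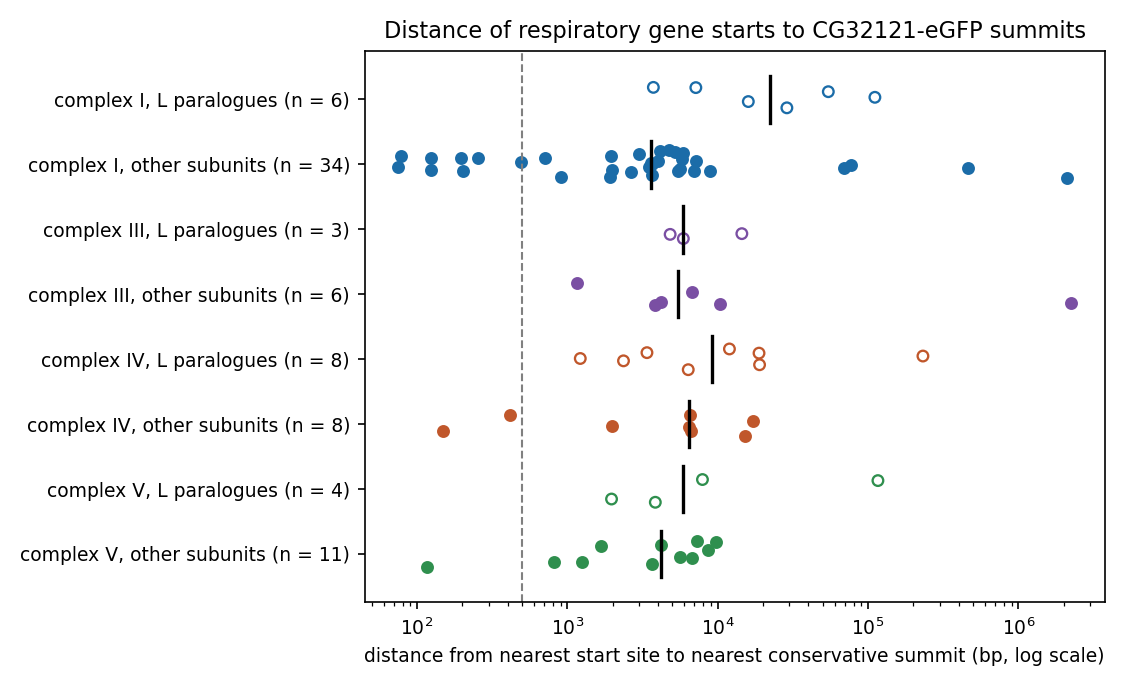
Distance from the nearest start site to the nearest conservative summit (horizontal axis, bp, log scale) for each of the 80 genes, by complex, with L paralogues as open circles and other subunits as filled ones; black bars are medians and the dashed line is 500 bp. All open circles lie to the right of the line, the nearest at 1218 bp.

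Of the 69 unbound genes, 52 had a summit within 500 bp in the ranked list and 17 had none. The strongest such summit at each of the 52 had a signal between 2.4 and 102.0, with a median of 39.2, and at 9 genes its IDR was within 0.05. Of the 80 genes, 65 had no promoter summit in any of the 4 thresholded lists. The 4 unbound genes that had one outside the conservative list were ATPsynE, COX7C and COX8, in the list of replicate 2 and the other thresholded list of the series, and COX7A, in that of replicate 2 only. The median distance to a conservative summit was 4778.5 bp, against 5361 bp for all genes. More than 50000 bp separated 9 genes (11.2%) from any summit, against 6.8% of all genes, with UQCR-11 (2241820 bp) and ND-AGGG (2097365 bp) the farthest. Both lie on 3L and, like ND-MLRQ (460437 bp), have the same nearest summit.

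The promoter sequences, taken from 250 bases before to 50 bases after the start in 300-base windows, were searched on both strands for short elements known at fly promoters. GGTCACAC, the core of the promoter element called motif 1, was in 18.8% of the respiratory promoters, against 7.7% of all promoters, and in 23.7% of those other than L paralogues, against 4.76% of the L paralogues. Among the bound genes it was at COX5B, COX7B and ND-MWFE. TATCGATA, the DNA replication-related element, was in 11.2% of respiratory promoters and 9.36% of all promoters; it was at ND-23 and ND-MNLL among the bound genes and at 0 of 21 L paralogues. The E-box CAGCTG was in 23.8% and 17.7%, TATAAA in 53.8% and 45.8%, and GAGAGAG in 1.25% and 5.87%.

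A palindromic element has been described upstream of nuclear respiratory genes in flies, and its cores TTACATAA, TTACGTAA and TTATATAA were searched together. Any of them was in 6.25% of the respiratory promoters and 5.18% of all promoters. Within the respiratory genes, 3 of the 11 bound ones held a core (ND-42, ND-MNLL and ND-SGDH), against 2 of the 69 unbound ones (2.9%). Without the L paralogues, none of which held a core, the unbound count was 2 of 48 (4.17%). These counts are for the promoter windows. In 201 bases around the summit, a core was found at ND-42, ND-SGDH and COX5B, but not at ND-MNLL. TTATATAA overlaps TATAAA where a further A follows it. A match describes the letters only.

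The bases under the summits were rich in A and T. In 101-base windows, GC content at the 11 summits had a median of 28.7% (20.8% to 54.5%), against 38.6% at all promoter summits and 36.6% at all conservative summits. The high values were those of ND-23 (54.5%) and COX5B (50.5%), the genes with the weakest signals, and the other 9 lay between 20.8% and 31.7%. The promoters of the respiratory genes were themselves low in GC, with a median of 33.8% against 38.0% for all genes, and bound and unbound ones differed little (34.7% and 33.7%).

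Of 42 further genes of respiration and mitochondrial energy metabolism, 12 were bound (28.6%), against 21.5% of all coding genes; the single groups hold 13 genes at most, too few to set their shares against it. None of the 6 genes of complex II (succinate dehydrogenase), which include the L copies SdhAL and SdhBL, was bound. Nor was any of 6 regulators of mitochondrial biogenesis. Subunits and carriers with other names were bound at 4 of 10 genes: Cyt-c-d, a testis-type cytochrome c, at 250.9 in replicate 1 and 595.7 in replicate 2 (847.1 for the series), blw, the alpha subunit of the ATP synthase, at 72.2 and 150.4 (240.7), and levy and cype, named with their L paralogues. The L copy Cyt-c1L was among the unbound genes of this group. CIA30, an assembly factor of complex I, had 458.9 and 1108.6 (1555.3), above every one of the 80 genes, and was the only 1 bound of 7 assembly factors. The citrate cycle and pyruvate dehydrogenase had 7 of 13 genes bound, led by Fum1 (the peak shared with ND-ASHI) and by Idh3g, a subunit of isocitrate dehydrogenase, at 158.9 and 264.0 (437.3). Mdh2 (496 bp) and Ogdh (477 bp) counted as bound just inside the 500 bp limit. Apart from the shared Fum1 peak, whether the summits of these further genes lie nearer to the start of another gene was not examined.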

How the data were processed

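The deposited files are ChIP-seq peak lists on dm6, per the labels and the notes deposited with the samples: for each of 2 replicates a ranked and a thresholded list, and for the series 2 thresholded lists and a ranked one used here (7 in all). The peak signal is the authors' value and its scale is not stated. The deposited −log10 value used here is the global IDR of each peak in the ranked list of the series. For the aligner and the peak caller, names and versions were not given in the sources used here. Per the deposited notes, the thresholded lists drew on another input that the notes do not describe. Read depth is unknown. From these, 1-based summits were compared with the start sites of the Ensembl annotation (Release 6), using Python 3.11.15, pandas 2.3.3, numpy 2.4.6 and matplotlib 3.10.9, after the steps were tested on simulated data. For replicate signals, each summit was matched to the closest one, at most 200 bp away, in the ranked list of that replicate. Peaks within the IDR limit of 0.01 in the ranked list but absent from the conservative list (172) were not counted. Sequences come from RefSeq Release 6. Genes named are every bound gene, every L paralogue with its somatic counterpart, every gene over 500 and up to 1000 bp from a summit and every neighbour that shares a summit, except 1 that is not reported here; other genes named were chosen after their values were seen. Alternatives changed the peak list, replicate, IDR limit, window or start site. The genes and lists were chosen with earlier results of these data known. No test was made between shares of genes and no p-value is given, because the design has 1 group. The replicates, biological per the labels, give 2 values each. The Cox15 symbol was not matched, and Nc73EF was matched as Ogdh.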

Additional observations from a re-analysis of the deposited data

Results flagged for a closer look

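At ATPsynC, the gene for subunit c of the ATP synthase ring, the ranked list of the series held a peak within the IDR limit, with a signal of 84.3, an IDR of 0.0046 and a summit 456 bp from a start. It stood out because the conservative list does not hold it, so ATPsynC counts as unbound here. A further ranked peak within 500 bp of a start of this gene had an IDR of 0.00459, with a signal of 2.6. No replicate's thresholded list had a promoter summit at this gene.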

How the results depend on the processing

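The alternatives moved the number of respiratory genes bound (11) to between 6 and 12 when only 1 replicate's list was used, to 5 at an IDR of at most 0.001, to 7 when the start had to lie inside the peak and to 63 in the ranked list without a limit. Under the same settings complex I (8) moved to 5 to 6, 5, 5 and 31, and head-to-head genes (11) to 6 without replicate 2, 5, 7 and 37. Complex IV (2) moved to 1 to 4 with 1 replicate, 4 in the other thresholded list, 0 at the stricter IDR, 1 in a 250 bp window, 1 with the start inside the peak and 12 in the ranked list. Complex V (1) moved to 0 to 2 with 1 replicate, 2 in the other list, 0 at the stricter IDR, 2 in a 1000 bp window and 14 in the ranked list. Complex III (0) changed in the ranked list, to 6, and the L paralogues (0) there to 10. The core of complex I (3) gave 2 with either replicate alone and 2 in the other list. It also gave 2 at the stricter IDR, in a 250 bp window and with the start inside the peak. In a 1000 bp window it gave 4, and in the ranked list 6. Genes without a head-to-head start (0) gave 1 in the other list, 1 without replicate 1, 1 in a 1000 bp window and 26 in the ranked list. Somatic counterparts (6) gave 3 without replicate 2, 3 at the stricter IDR and 16 in the ranked list. The share of all genes (21.5%) was between 13.1% and 20.5% with 1 replicate, 12.9% at the stricter IDR, 14.0% with the start inside the peak and 68.8% in the ranked list. The head-to-head and core counts were added after seeing the data. Beyond the construction of each alternative (fewer or more peaks, 1 replicate), the cause of these moves was not tested. With the 5′-most start alone, the same 11 genes were bound. No paired analysis was possible because there is 1 group. Read depth is unknown, so what depth limits cannot be given.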

Other observations

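Summits inside genes but away from their starts were seen at few of the 80 genes. ND-15, 41305 bp long, held 4 conservative summits inside the gene and none within 6932 bp of a start. ND-39, 5003 bp long, held 3, the nearest 912 bp from a start.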
